A study of Homo sapiens with 4 samples.

Results

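The scrambled siRNA library and the DMSO library are the control libraries of a study of CDK4/6 inhibition in HepG2 cells, and the comparison described here sets the first against the second gene by gene. A gene was compared when it had at least 10 reads in either library after the counts of repeated symbols were summed, which left 13303 of 24462 gene symbols. There were 4 libraries of polyadenylated RNA, 1 per condition. They were made by QuantSeq 3′ mRNA sequencing, which primes cDNA on the poly(A) tail and so reads each transcript near its 3′ end. The 4 conditions were DMSO, PD0332991 (a CDK4/6 kinase inhibitor dissolved in DMSO), scrambled siRNA, and a knockdown with siRNA against both kinases, CDK4 and CDK6 (CDK4/6 KD). HepG2 is a hepatocellular carcinoma cell line, and all libraries came from cells kept in RPMI with fetal bovine serum and penicillin-streptomycin. DMSO was the vehicle of the drug. The scrambled siRNA culture received a control siRNA, whose sequence is not given in the sources used here, and the study's methods name Lipofectamine or RNAiMAX as transfection reagents. The solvent, the reagent, the oligo, and any difference in plating or harvest between the arms cannot be told apart in this comparison. The study's paper states a time after transfection or treatment for its protein blots of HepG2 cells, but the time at which the sequenced cultures were harvested is not given in the sources used here.

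A scrambled siRNA is meant to load the RNA interference machinery without matching a chosen transcript, and a lipid reagent carries it into the cell through endosomes. Double-stranded RNA can be met by sensors such as RIG-I and PKR, which are known to induce interferon-stimulated genes. Liver cells are known to answer growth factors through the ERK cascade and its immediate early genes, to set iron uptake through BMP signalling and the hormone hepcidin, and to hold cholesterol constant through the transcription factor SREBP2.

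Library totals ran from 8983848 to 11176880 reads, and each library had 10 reads or more for 12780 to 13257 genes. The targeted genes were lower in the library labelled CDK4/6 KD than in the others: CDK4 stood at 354 CPM in scrambled siRNA, 301 in DMSO, 71.9 in CDK4/6 KD and 257 under PD0332991, and CDK6 at 536, 515, 129 and 479 CPM. Levels are given in CPM, read counts scaled to 1000000 reads per library after TMM correction of the library sizes, 1 read being worth between 0.0883 and 0.11 CPM. Where 4 levels or read numbers follow each other, they stand in the order scrambled siRNA, DMSO, CDK4/6 KD and PD0332991. A fold change is the level in scrambled siRNA divided by that in DMSO after adding 0.5 reads to each count, and its 95% interval is the exact Clopper-Pearson interval for how a gene's reads divide between the libraries. With 1 library a side there was no replicate check and no test was possible, so "higher" and "lower" compare these libraries and the intervals cover counting error only. All 11 HepG2 and hepatocyte markers were compared, none differed 2-fold, and their summed level was 16550 CPM in scrambled siRNA and 16702 in DMSO. Markers of other cells did differ. Of 10 fibroblast and stromal markers, 5 had enough reads and all 5 were over 2-fold lower in scrambled siRNA. Their summed level was 9.16 CPM in scrambled siRNA, 50.3 in DMSO, 23.4 in CDK4/6 KD and 81.9 in PD0332991. DCN had 0 reads in scrambled siRNA and in DMSO, 2 in CDK4/6 KD and 18 in PD0332991. Of 14 keratinocyte markers, 8 had enough reads and 6 were over 2-fold higher, with sums of 366, 206, 208 and 223 CPM in the same order, TP63 and IVL having 0 reads in scrambled siRNA. SFN made up most of the sum in scrambled siRNA, and without it the sums were 60.8, 72.3, 106 and 162 CPM, lowest in scrambled siRNA and highest in PD0332991. Except in PD0332991, most of that remainder was KRT10, at 48, 66.3, 87.1 and 77 CPM, a marker lower in scrambled siRNA (fold change: 0.724). Besides SFN, the markers over 2-fold higher had few reads, KRT6A the most with 37 in scrambled siRNA and 9 in DMSO. None of 8 endothelial markers had enough reads, and they summed to between 0.353 and 0.657 CPM. Of 10 leukocyte markers 4 were compared and 2 of them were 2-fold lower. Their sums of 1036, 755, 512 and 522 CPM came almost wholly from LYZ, at 1022, 742, 501 and 504 CPM. Whether such other cells were present, and any part of them in the differences described here, was not tested.

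A fold change of 2 or more was found upward for 705 genes (5.3% of those compared) and downward for 883 (6.64%). The whole interval lay past 2-fold for 165 genes upward (1.24%) and 265 downward (1.99%). These shares depended on depth. Among genes with a mean of 5 to 20 reads, 23.5% were 2-fold higher and 24.2% 2-fold lower, whereas among the 4155 genes with a mean of 500 reads or more the shares were 1.52% and 1.76%. The whole interval lay above 1 for 28.3% of the compared genes and below 1 for 28.0%. The counts of list members below are to be read against these shares. The median log2 fold change over all genes was 0.01. Among 4 groups of genes of equal size by GC content at the 3′ end it ran from -0.06 in the lowest to 0.09 in the highest.

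**Figure D1:**
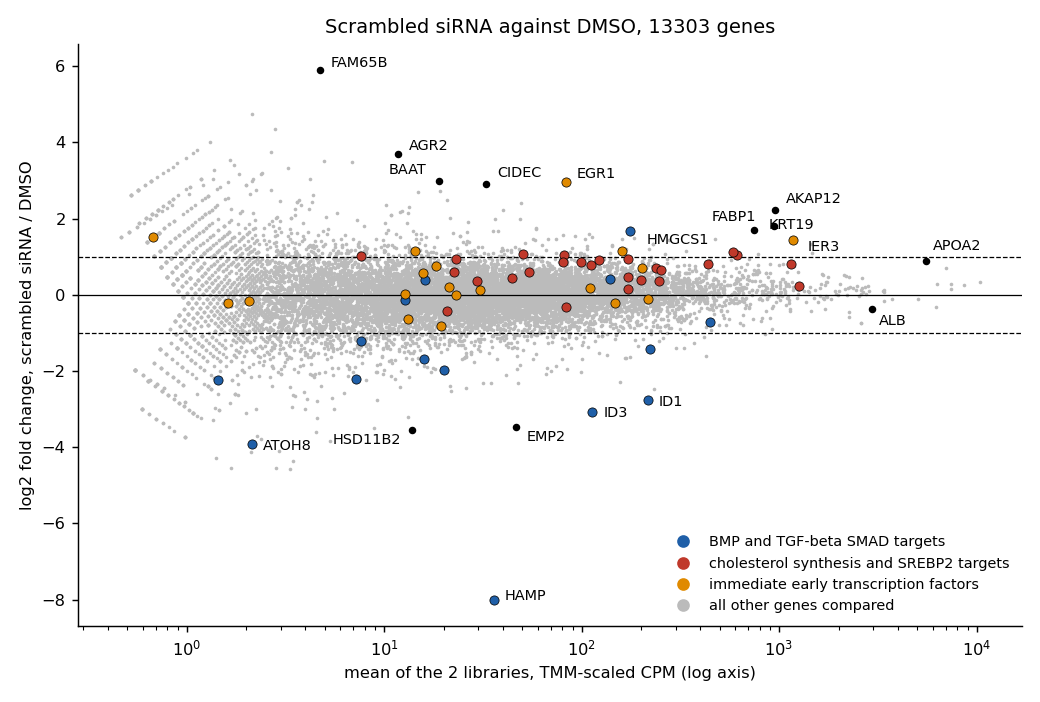
Each point is 1 of 13303 genes, with the mean of the scrambled siRNA and DMSO levels in TMM-scaled CPM on a log x axis and the log2 fold change of scrambled siRNA to DMSO on the y axis. Genes with 0 reads in 1 library stand at their ratio to a floor of 3 reads, and dashed lines mark 2-fold. Blue points are BMP and TGF-beta SMAD targets, red points cholesterol genes and orange points immediate early genes. HAMP, ID1 and ID3 lie far below the cloud, EGR1 and CIDEC above it, and most red points lie just above 0.

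Among the genes with the firmest higher level in scrambled siRNA, several are known from fat and bile acid handling. CIDEC, which coats and fuses lipid droplets, stood at 58.1 CPM in scrambled siRNA, 7.77 in DMSO, 18.6 in CDK4/6 KD and 11.6 under PD0332991 (fold change: 7.44, 95% interval 5.84 to 9.7). BAAT, which joins bile acids to glycine or taurine, stood at 33.8, 4.27, 9.54 and 3.08 CPM (fold change: 7.85, 95% interval 5.69 to 11.3). For both genes scrambled siRNA was the highest library and CDK4/6 KD the next. AGR2, a protein disulfide isomerase of secretory epithelia, stood at 22, 1.64, 13.6 and 2.42 CPM (fold change: 13, 95% interval 7.95 to 24.3). The cytokine gene IL17B stood at 12.7, 1.09, 21.1 and 0.988 CPM (fold change: 11.2, 95% interval 6.13 to 24.8). For both, the 2 siRNA libraries were above the 2 others.

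Other genes of this group were high in the scrambled siRNA library but not, or less so, in CDK4/6 KD. RNF183, a ubiquitin ligase of the endoplasmic reticulum, stood at 9.16 CPM in scrambled siRNA, 0.766 in DMSO, 0.618 in CDK4/6 KD and 3.4 under PD0332991 (fold change: 11.3, 95% interval 5.59 to 30.5). BIRC7, an inhibitor of apoptosis, had 45 reads against 1 in DMSO, with 3 in CDK4/6 KD and 12 in PD0332991 (ratio: 26.7, 95% interval 6.55 to 1551). FAM65B had 100 reads against 1 (ratio: 59, 95% interval 15 to 3406), with 69 in CDK4/6 KD and 19 in PD0332991, and TMC8 had 54 against 3 (ratio: 13.5, 95% interval 4.99 to 76.9), with 18 and 24. Low counts leave these ratios wide. SLC26A3, a chloride-bicarbonate exchanger, had 29 reads in scrambled siRNA and 0 in DMSO. It was 8.25-fold higher when DMSO is set at a floor of 3 reads, and its 95% interval began at 6.3-fold. LIPE-AS1 had 37 reads against 0, 10.5-fold higher by the same floor, with an interval from 8.1-fold. LIPE, the gene on the opposite strand, had 0 reads in both libraries, and whether the counting used strand is not given in the sources used here.

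The firmest lower levels began with HAMP, which encodes hepcidin, the liver hormone that closes iron export. HAMP had 0 reads in scrambled siRNA, 655 in DMSO (71.7 CPM), 1 in CDK4/6 KD and 394 in PD0332991 (43.3 CPM). Against a floor of 3 reads it was 256-fold lower in scrambled siRNA, and its 95% interval began at 207-fold. LCN15, a lipocalin, had 0 reads against 61, with 6 in CDK4/6 KD and 84 in PD0332991. It was 23.8-fold lower by the same floor, with an interval from 18.8-fold. HSD11B2, which turns cortisol into cortisone, stood at 2.15 CPM in scrambled siRNA, 25.5 in DMSO, 3.27 in CDK4/6 KD and 17.5 under PD0332991 (fold change: 0.0861, 95% interval 0.0524 to 0.13). KCNJ10, a potassium channel gene, stood at 1.4, 16.3, 1.15 and 10.3 CPM (fold change: 0.0887, 95% interval 0.0469 to 0.146). LDLRAD1 had 7 reads in scrambled siRNA, 91 in DMSO, 2 in CDK4/6 KD and 198 under PD0332991 (fold change: 0.0703, 95% interval 0.0257 to 0.141). In all of these both siRNA libraries were below both others.

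A second set was low in the scrambled siRNA library alone. EMP2, a small tetraspan membrane protein gene, stood at 7.66 CPM in scrambled siRNA, 85 in DMSO, 68.8 in CDK4/6 KD and 61.9 under PD0332991 (fold change: 0.0906, 95% interval 0.0709 to 0.113). The long noncoding RNA HULC had 2 reads in scrambled siRNA, 50 in DMSO, 51 in CDK4/6 KD and 43 in PD0332991 (ratio: 0.0428, 95% interval 0.00403 to 0.13). FOXJ1, a transcription factor of ciliated cells, had 3, 51, 63 and 27 reads in the same order (ratio: 0.0586, 95% interval 0.010 to 0.155). ADAMTSL2, a matrix protein gene, had 0, 25, 19 and 26 reads, 9.76-fold lower than in DMSO by the floor of 3 reads (interval from 7.37-fold). RTN4RL2 had 3, 61, 75 and 22 reads (ratio: 0.0491, 95% interval 0.00843 to 0.129).

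Signalling genes differed most through the targets of BMP and TGF-beta SMAD proteins. Of 16 genes in this list 15 were compared, and 10 were 2-fold lower in scrambled siRNA and 1 was 2-fold higher, against 6.64% and 5.3% of all genes. The list's median log2 fold change was -1.68, with HAMP and ATOH8 at their floor ratios as well as at their fitted values. The whole interval lay below 1 for 11 members. ID1, ID2 and ID3 encode inhibitors of basic helix-loop-helix factors and are direct BMP targets. ID1 stood at 55.2 CPM in scrambled siRNA, 377 in DMSO, 19.97 in CDK4/6 KD and 227 under PD0332991 (fold change: 0.147, 95% interval 0.134 to 0.16), and ID3 at 24, 203, 22.1 and 111 CPM (fold change: 0.118, 95% interval 0.103 to 0.135). ID2 differed less, at 338, 555, 206 and 586 CPM (fold change: 0.608, 95% interval 0.583 to 0.635). For each of the 3 genes both siRNA libraries lay below both others.

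Feedback inhibitors of the pathway were lower too. SMAD7, which blocks TGF-beta and BMP receptors, stood at 2.52 CPM in scrambled siRNA, 11.9 in DMSO, 6.01 in CDK4/6 KD and 11.9 under PD0332991 (fold change: 0.215, 95% interval 0.133 to 0.325), and SMAD6, which acts on BMP receptors, at 4.58, 10.6, 3.53 and 11.5 CPM (fold change: 0.434, 95% interval 0.30 to 0.614). ATOH8, a transcription factor gene that BMP signalling induces in liver, had 0 reads against 39, with 10 in CDK4/6 KD and 66 in PD0332991. It was 15.2-fold lower by the floor of 3 reads, with an interval from 11.8-fold. TGF-beta targets did not all follow. TGFBI, a secreted matrix protein gene, stood at 121, 322, 45.8 and 375 CPM (fold change: 0.375, 95% interval 0.351 to 0.40), whereas SMURF1 (fold change: 1.31) and LTBP3 (fold change: 1.33) were slightly above 1, and the interval of BAMBI spanned 1. In CDK4/6 KD against PD0332991, a pair that shares no library with scrambled siRNA and DMSO, the median was -1.51, and 12 of the 15 members lay below 1 in both pairs.

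Collagen genes among the stromal markers were lower as well. COL1A1 stood at 6.82 CPM in scrambled siRNA, 36.3 in DMSO, 18.3 in CDK4/6 KD and 51.4 under PD0332991 (fold change: 0.189, 95% interval 0.144 to 0.243), COL1A2 at 1.59, 7.22, 3.18 and 16.3 CPM (fold change: 0.225, 95% interval 0.121 to 0.379), and COL3A1 had 1 read against 30, with 7 in CDK4/6 KD and 59 in PD0332991. The intermediate filament gene VIM stood at 0.748, 6.13, 1.94 and 12.6 CPM (fold change: 0.129, 95% interval 0.0502 to 0.257). FST, which encodes the activin antagonist follistatin, stood at 16, 79, 15.6 and 101 CPM (fold change: 0.203, 95% interval 0.17 to 0.239). VIM and FST are not among the stromal markers listed above. In bulk RNA, fewer cells of a type and less RNA per cell cannot be told apart. Whether stromal cells were present, and any part of them in the lower SMAD targets, was not tested.

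The HAMP promoter is shown because this gene had the largest lower bound on a fold difference in the comparison. Capitals mark the palindrome GGCGCC, part of the BMP response element known from this gene. The window runs from 250 bases before to 50 bases after the start at chr19:35282278-35282577 on the plus strand (RefSeq, GRCh38.p14). The counts were made on hg19 according to the submitters' processing notes, and no coordinates were taken from them.
HAMP: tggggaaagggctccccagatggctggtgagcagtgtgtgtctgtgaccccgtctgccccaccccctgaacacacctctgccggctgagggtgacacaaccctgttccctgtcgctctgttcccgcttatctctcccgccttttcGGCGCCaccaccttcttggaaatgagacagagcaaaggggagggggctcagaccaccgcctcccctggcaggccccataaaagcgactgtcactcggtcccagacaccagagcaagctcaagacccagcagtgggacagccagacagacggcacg
The palindrome begins 105 bases before the start. Searched in the same window on both strands, it was found in 4 of the 14 list members with a promoter entry (HAMP, BAMBI, SKIL and TGFBI), in 19.0% of all promoters and in 30.2% of those of the compared genes. The share in the list was therefore close to that of all compared genes, and a match describes letters, not a bound site.

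**Figure D2:**
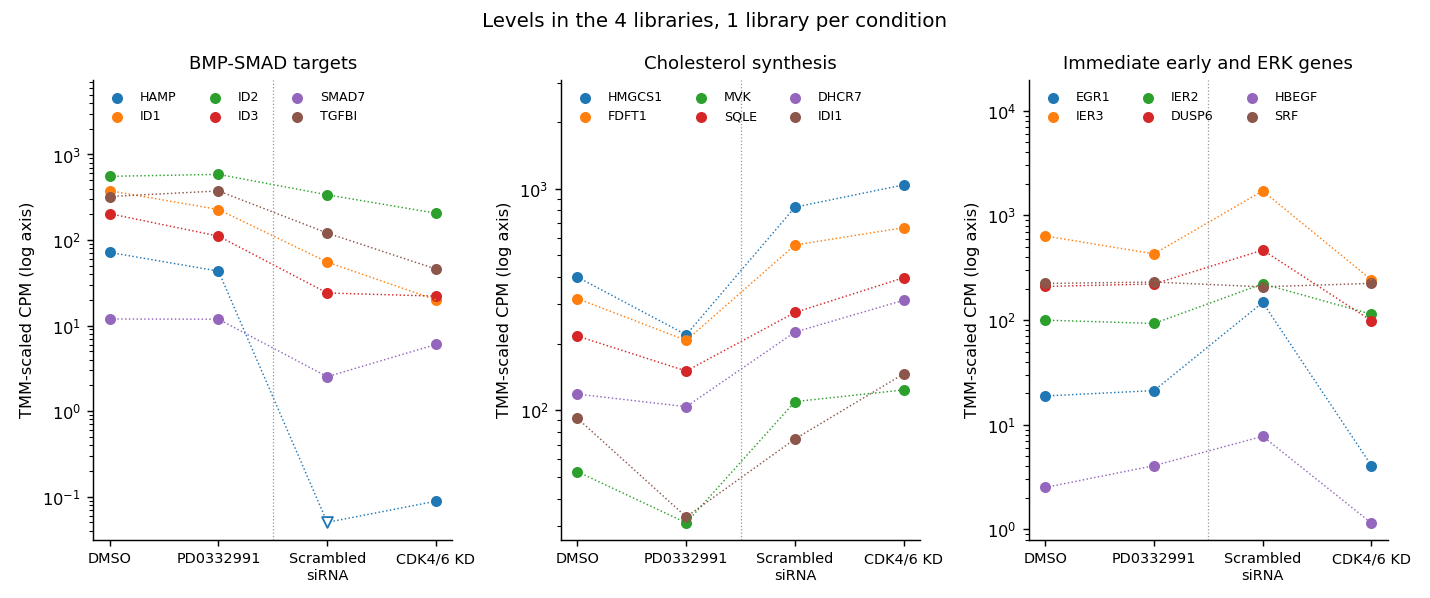
Level of 6 genes per panel in TMM-scaled CPM on log axes, with 1 point per library, the libraries in DMSO to the left and the siRNA libraries to the right. The open triangle is HAMP at 0 reads, placed below the level of 1 read, and dotted lines join the values of a gene. SMAD targets are lower in both siRNA libraries, cholesterol genes are higher in both than in DMSO except IDI1, which is lower in scrambled siRNA, and immediate early genes except SRF are highest in scrambled siRNA alone.

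Some immediate early transcription factors, which growth factors switch on within minutes through ERK and SRF, were higher in scrambled siRNA. Of 26 listed genes 19 were compared, 5 of them were 2-fold higher and none 2-fold lower, with a median log2 fold change of 0.19. The whole interval lay above 1 for 8 members and below 1 for 4, and it spanned 1 for 7. EGR1, a zinc finger factor, stood at 147 CPM in scrambled siRNA, 18.8 in DMSO, 4.06 in CDK4/6 KD and 21.2 under PD0332991 (fold change: 7.81, 95% interval 6.68 to 9.21). IER3 stood at 1715, 636, 242 and 429 CPM (fold change: 2.7, 95% interval 2.62 to 2.78) and IER2 at 222, 99.8, 114 and 92.8 CPM (fold change: 2.22, 95% interval 2.06 to 2.4). Scrambled siRNA was the highest library for all 3. The AP-1 subunit gene FOSL2 was 2-fold higher as well, at 19.7, 8.86, 18.4 and 11.5 CPM, and FOS had 11 reads against 3 (ratio: 2.85, 95% interval 0.827 to 17.5). Other members did not differ in this way. JUN (fold change: 1.14), MAFF (fold change: 1.0) and SRF itself (fold change: 0.929) lay near 1, and MYC was lower (fold change: 0.569, 95% interval 0.459 to 0.701). EGR2 had 7 reads against 0, too few to be compared.

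The EGR1 promoter is printed since EGR1 had the largest difference among the genes of this list. Capitals mark CArG boxes, the motif bound by SRF, in the window chr5:138465229-138465528 on the plus strand (RefSeq, GRCh38.p14).
EGR1: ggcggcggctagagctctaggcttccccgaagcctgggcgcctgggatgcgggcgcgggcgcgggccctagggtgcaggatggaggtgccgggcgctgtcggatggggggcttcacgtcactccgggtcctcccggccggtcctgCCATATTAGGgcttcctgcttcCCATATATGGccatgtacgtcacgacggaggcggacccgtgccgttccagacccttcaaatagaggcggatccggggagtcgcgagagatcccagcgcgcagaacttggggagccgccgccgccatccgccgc
Both CArG boxes lie within 105 bases before the start. The box was found in 1.29% of all promoters, in 2 of the 15 immediate early genes with an entry (EGR1 and SRF) and in 6 of 16 cytoskeletal SRF-MRTF targets. EGR1 and SRF both held the motif, and their fold changes were 7.81 and 0.929. Whether the motif goes with the fold change was not tested. The cytoskeletal targets had a median log2 fold change of 0.10, and of 19 compared none was 2-fold higher and 3 were 2-fold lower, among them the actin-binding genes TAGLN (fold change: 0.497) and TAGLN2 (fold change: 0.388).

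Genes that report ERK activity by feedback were divided. Of 15 compared, 3 were 2-fold higher and 1 was 2-fold lower, and the median was 0.04, a value that turned to -0.02 when libraries were scaled by total counts. The higher members were phosphatases of MAP kinases. DUSP6, which acts on ERK, stood at 466 CPM in scrambled siRNA, 209 in DMSO, 98.5 in CDK4/6 KD and 221 under PD0332991 (fold change: 2.22, 95% interval 2.11 to 2.35), DUSP5 at 13.4, 4.82, 1.33 and 3.73 CPM (fold change: 2.76, 95% interval 1.97 to 3.98), and DUSP4 had 29 reads against 9 (ratio: 2.67, 95% interval 1.27 to 6.61). SPRY4, a Sprouty inhibitor, was 1.71-fold higher with an interval from 1.3 to 2.3. DUSP1 (fold change: 0.981) and the ETS factors ETV4 (fold change: 0.878) and ETV5 (fold change: 0.925) did not share this. The AP-1 motif TGACTCA, searched on both strands, was found in 1 of 10 members with a promoter entry and in 4.92% of all promoters.

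Ligands of the EGF receptor were higher in the same library. AREG, amphiregulin, stood at 235 CPM in scrambled siRNA, 102 in DMSO, 77.2 in CDK4/6 KD and 81.2 under PD0332991 (fold change: 2.29, 95% interval 2.13 to 2.47), EREG, epiregulin, at 22.6, 10.6, 12.8 and 8.02 CPM (fold change: 2.13, 95% interval 1.68 to 2.72), and HBEGF had 83 reads against 23 (fold change: 3.04, 95% interval 1.92 to 5.13). GDF15, a secreted stress hormone, stood at 2016, 937, 909 and 1359 CPM (fold change: 2.15, 95% interval 2.1 to 2.21). Together these were the 4 of 13 compared growth factor ligands that were 2-fold higher, and none was 2-fold lower. TGFA differed little (fold change: 1.22), and EGF had 0 reads in all libraries.

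Receptor tyrosine kinases were mostly lower, with 4 of 12 compared 2-fold lower, 1 (AXL) 2-fold higher and a median log2 fold change of -0.52. ERBB3, a partner receptor that binds neuregulins, stood at 63.1 CPM in scrambled siRNA, 181 in DMSO, 152 in CDK4/6 KD and 267 under PD0332991 (fold change: 0.348, 95% interval 0.318 to 0.381). ERBB2, which pairs with it, stood at 24.5, 64.7, 48.2 and 65.6 CPM (fold change: 0.379, 95% interval 0.326 to 0.439), and FGFR3 at 55.8, 117, 105 and 138 CPM (fold change: 0.479, 95% interval 0.432 to 0.53). The lowest library was scrambled siRNA for all 3. EGFR itself was slightly higher (fold change: 1.33).

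Insulin and FOXO targets had 4 members 2-fold higher and 2 that were 2-fold lower among 19 compared, and their median of 0.09 turned to -0.21 with no filter on reads. IGFBP1, an IGF-binding protein that insulin represses in liver, stood at 405 CPM in scrambled siRNA, 151 in DMSO, 12.3 in CDK4/6 KD and 470.3 under PD0332991 (fold change: 2.69, 95% interval 2.53 to 2.86), so the CDK4/6 KD library lay far below the 3 others. SESN3 had 54 reads against 8 (ratio: 5.51, 95% interval 2.73 to 14), and IGFBP5 had 1 against 17 (ratio: 0.0749, 95% interval 0.0012 to 0.321). YAP-TEAD targets had a median of 0.33 with 1 of 18 members 2-fold higher and 1 lower. CYR61 stood at 54.6, 31.2, 44.2 and 22.7 CPM (fold change: 1.75, 95% interval 1.52 to 2.02).

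Wnt and Notch targets leaned downward. Of 14 Wnt-beta-catenin targets 3 were 2-fold lower and 1 was higher, with a median log2 fold change of -0.29. NOTUM, a secreted Wnt antagonist, stood at 79.9 CPM in scrambled siRNA, 254 in DMSO, 92.9 in CDK4/6 KD and 238 under PD0332991 (fold change: 0.315, 95% interval 0.29 to 0.34), the transcription factor gene SP5 at 221, 448, 326 and 219.8 CPM (fold change: 0.494, 95% interval 0.47 to 0.52), and ZNRF3, a ligase that removes Wnt receptors, at 65, 132, 76.7 and 77.8 CPM (fold change: 0.494, 95% interval 0.449 to 0.542). AXIN2, the common reporter of the pathway, differed by a fold change of 0.972. Of 6 Notch targets and ligands none was 2-fold apart, and 5 had whole intervals below 1. Feedback genes of NF-kappaB included NFKBIA, its inhibitor, at 165, 437, 199 and 383 CPM (fold change: 0.378, 95% interval 0.357 to 0.399), and BCL3 at 10.4, 26.8, 12.6 and 23.2 CPM (fold change: 0.388, 95% interval 0.306 to 0.486). Both were lower in both siRNA libraries, yet the median of the 17 compared members was 0.05, and -0.01 with total count scaling.

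Interferon-stimulated genes and sensors of double-stranded RNA were close to DMSO. Of 34 listed interferon-stimulated genes 25 were compared. None was 2-fold higher, 1 was 2-fold lower (TRIM22, with 1 read against 10), and 15 intervals spanned 1, around a median of 0.16. IFIT1, which binds viral RNA, had 19 reads in scrambled siRNA and 19 in DMSO (fold change: 0.857). It had 53 reads in CDK4/6 KD and 20 in PD0332991, a fold change of 2.11 (95% interval 1.25 to 3.76). In that pair the median log2 fold change of the list was -0.02. OAS1, an RNA-activated synthetase, stood at 11.4 CPM in scrambled siRNA and 7.55 in DMSO (fold change: 1.51, 95% interval 1.11 to 2.06), and PARP9 at 12.2 CPM in scrambled siRNA and 18.6 in DMSO (fold change: 0.659, 95% interval 0.52 to 0.831). RSAD2 and OASL had 0 reads in all 4 libraries, at which a level up to 0.28 CPM in scrambled siRNA (3 reads) would go undetected. Among the 10 compared sensors and adaptors none was 2-fold apart. DDX58, which encodes RIG-I, was near 1 (fold change: 0.943, 95% interval 0.727 to 1.22), EIF2AK2, which encodes PKR, was lower (fold change: 0.632, 95% interval 0.569 to 0.70), and so was the adaptor MAVS (fold change: 0.612, 95% interval 0.573 to 0.653). TLR3 had too few reads to be compared. The time at which these cultures were harvested, on which such genes depend, is not given in the sources used here.

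The IFI6 promoter is shown as that of an interferon-stimulated gene that did not differ. Capitals mark the interferon response core GAAANNGAAA, which was searched on both strands, in the window chr1:27672143-27672442 on the minus strand (RefSeq, GRCh38.p14).
IFI6: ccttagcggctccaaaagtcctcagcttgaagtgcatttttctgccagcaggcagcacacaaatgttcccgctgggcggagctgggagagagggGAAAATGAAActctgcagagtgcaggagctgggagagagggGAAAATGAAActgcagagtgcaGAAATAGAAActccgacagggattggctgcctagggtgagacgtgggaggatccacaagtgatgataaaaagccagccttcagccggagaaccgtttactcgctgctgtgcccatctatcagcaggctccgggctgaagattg
The first of its 3 copies begins 156 bases before the start, and IFI6 stood at 23.3 CPM in scrambled siRNA, 23 in DMSO, 32.3 in CDK4/6 KD and 26.9 under PD0332991 (fold change: 1.01, 95% interval 0.839 to 1.22). The core was found in 14 of 20 compared interferon-stimulated genes with an entry and in 3.65% of all promoters. Among the lists searched, the one that held its motif most often was one with no member 2-fold higher, and motif and fold change were not tested against each other.

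Components of the small RNA machinery likewise differed little, with 1 of 13 members 2-fold lower and a median of -0.09. DICER1 had a fold change of 1.12 and DROSHA of 0.986. The scaffold gene TNRC6C was the 1 member past 2-fold, at 31.2 CPM in scrambled siRNA, 64.7 in DMSO, 71.8 in CDK4/6 KD and 63.6 under PD0332991 (fold change: 0.483, 95% interval 0.421 to 0.553), with TNRC6A at 0.606 and AGO4 at 0.609.

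**Figure D3:**
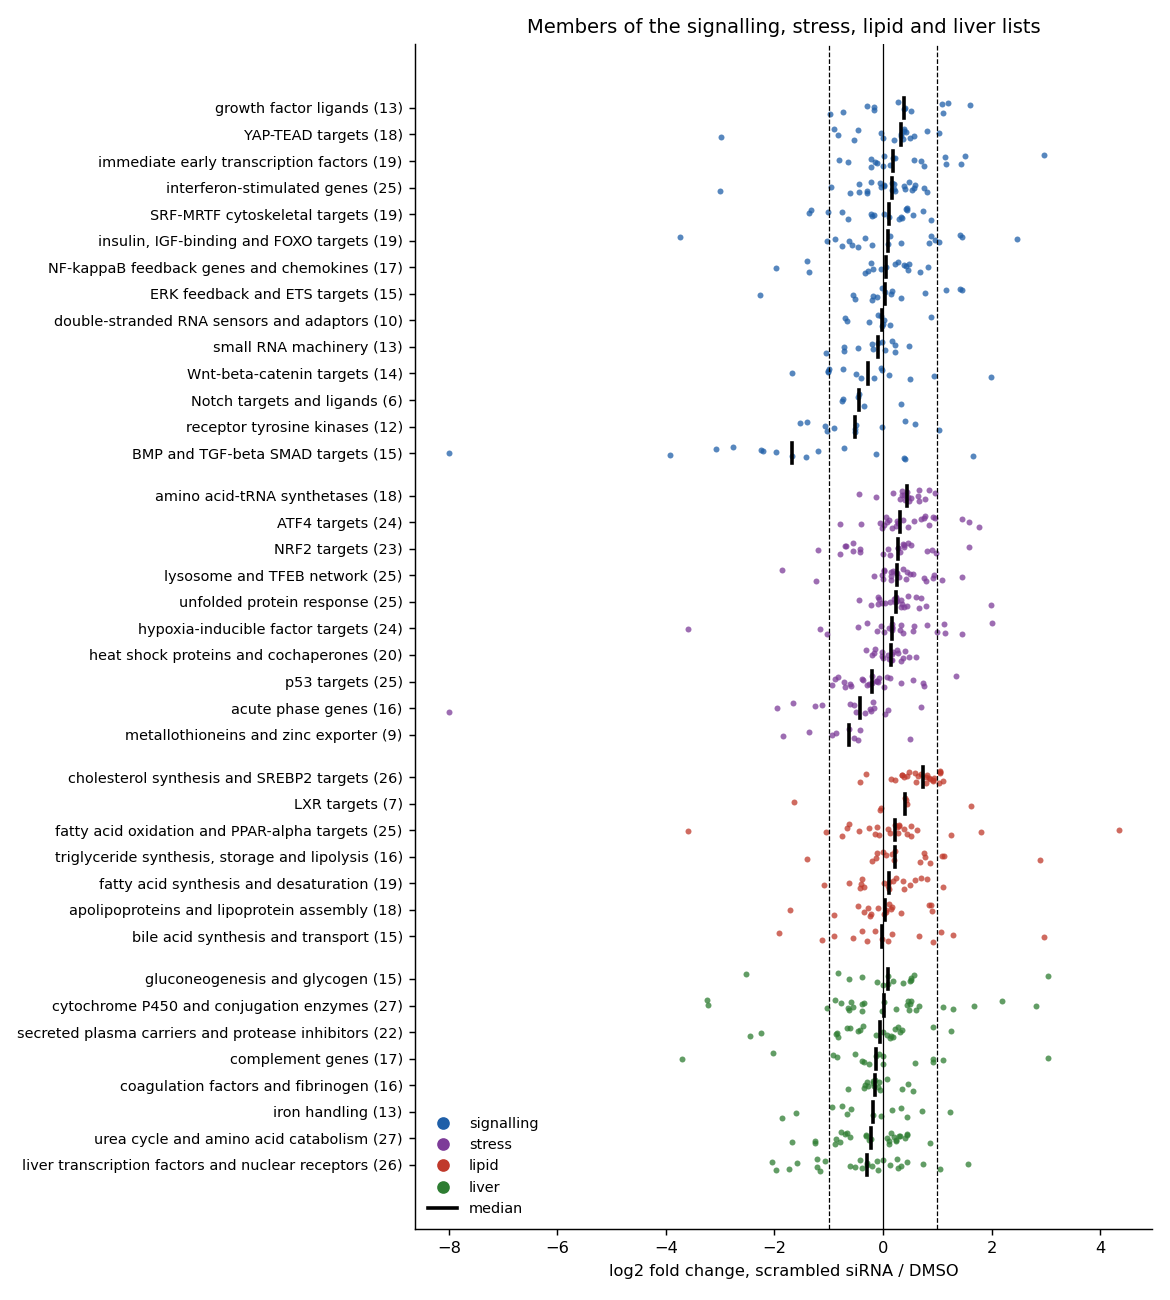
Log2 fold change of scrambled siRNA to DMSO (x axis) for every compared member of the 39 signalling, stress, lipid and liver lists, 1 row per list with the number of members in brackets. Points are genes, black bars medians and dashed lines 2-fold, and genes at 0 reads stand at their bound. The SMAD targets have the lowest median (-1.68) and the cholesterol genes the highest (0.74), and most other medians lie between -0.5 and 0.5.

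Stress genes were on balance slightly higher. Over 207 genes of the 10 stress lists 11 were 2-fold higher and 13 were 2-fold lower, shares near those of all genes, with a median log2 fold change of 0.16. ATF4 is the factor that raises amino acid uptake and tRNA charging when amino acids run short. Of 24 ATF4 targets compared 3 were 2-fold higher and none lower, and 15 had whole intervals above 1 (median: 0.32). ATF4 stood at 988 CPM in scrambled siRNA, 579 in DMSO, 1340.0 in CDK4/6 KD and 1352 under PD0332991 (fold change: 1.71, 95% interval 1.65 to 1.77). SLC7A11, the cystine importer, stood at 163, 54, 167 and 178 CPM (fold change: 3.02, 95% interval 2.73 to 3.34) and DDIT4, an inhibitor of mTORC1, at 83.1, 30.1, 139.8 and 86.4 CPM (fold change: 2.76, 95% interval 2.41 to 3.17). For these 3 genes DMSO was the lowest library, below PD0332991 as well. The ATF4 composite motif TTGCATCA, searched on both strands, was found in 0 of 19 targets with a promoter entry and in 0.923% of all promoters. TRIB3, a pseudokinase gene, stood at 172, 88.9, 231 and 129 CPM (fold change: 1.93, 95% interval 1.78 to 2.1).

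Of 18 aminoacyl-tRNA synthetases 15 had whole intervals above 1 while none reached 2-fold (median: 0.45). GARS, for glycine, stood at 274 CPM in scrambled siRNA, 142 in DMSO, 379 in CDK4/6 KD and 284 under PD0332991 (fold change: 1.94, 95% interval 1.81 to 2.07), AARS, for alanine, at 349, 195, 362 and 308 CPM (fold change: 1.79, 95% interval 1.69 to 1.9), and SARS, for serine, at 163, 95.9, 141 and 193 CPM (fold change: 1.7, 95% interval 1.57 to 1.85). The median of 25 compared genes of the unfolded protein response was 0.24. HSPA5, the chief chaperone of the endoplasmic reticulum, had a fold change of 1.38. The sensor gene ERN1 had 14 reads against 0, 3.98-fold higher by the floor of 3 reads (interval from 2.83-fold). None of 20 heat shock proteins and cochaperones was 2-fold apart.

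Oxidative stress, p53 and lysosome lists each held a few members that differed firmly. The 23 compared NRF2 targets had a median of 0.27, with 13 whole intervals above 1 and 8 below. SLC7A11, given above, was the 1 member 2-fold higher, and AKR1C2 the 1 member 2-fold lower. AKR1C2, an aldo-keto reductase with near-identical copies among which reads may be split, stood at 114 CPM in scrambled siRNA, 261 in DMSO, 174 in CDK4/6 KD and 252 under PD0332991 (fold change: 0.438, 95% interval 0.408 to 0.469). The usual reporters NQO1 and HMOX1 had fold changes of 1.38 and 0.681. CDKN1A, the p53 target that encodes the CDK inhibitor p21, stood at 331, 131, 117 and 166 CPM (fold change: 2.53, 95% interval 2.37 to 2.7), but the 25 p53 targets had a median of -0.20 and MDM2 a fold change of 0.863. SQSTM1, the autophagy receptor p62, stood at 698, 255, 290.2 and 342 CPM (fold change: 2.74, 95% interval 2.61 to 2.87). LAMP2, a lysosomal membrane protein, stood at 32, 117, 79.1 and 116 CPM (fold change: 0.274, 95% interval 0.242 to 0.309), lowest in scrambled siRNA. LAMP1 did not share this (fold change: 1.28).

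Most metallothioneins, the zinc and copper binding proteins, were lower, but the one with the most reads was higher. Of 9 compared genes, a zinc exporter gene among them, 8 had whole intervals below 1, 2 were 2-fold lower and the median was -0.62. MT1F stood at 60.4 CPM in scrambled siRNA, 155 in DMSO, 64 in CDK4/6 KD and 77 under PD0332991 (fold change: 0.389, 95% interval 0.354 to 0.427) and MT1M had 30 reads against 93 (fold change: 0.279, 95% interval 0.176 to 0.42). MT2A stood at 2542, 1809.5, 474 and 917 CPM (fold change: 1.4, 95% interval 1.38 to 1.43), and through it the summed level of the list was 3708 CPM in scrambled siRNA and 3598 in DMSO. These genes are close copies of each other and their reads may be split. Hypoxia targets had 5 members 2-fold higher and 3 lower among 24. The glucose transporter gene SLC2A1 stood at 804, 362, 96.5 and 285 CPM, so that both CDK4/6 inhibited libraries were below DMSO, while VEGFA was lower in scrambled siRNA (fold change: 0.811).

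Acute phase genes, which IL6 raises in liver through the receptor chain gp130, were lower. Of 16 compared, 13 had whole intervals below 1, 5 were 2-fold lower and none higher (median: -0.42). IL6ST, which encodes gp130, stood at 34.6 CPM in scrambled siRNA, 135 in DMSO, 163 in CDK4/6 KD and 138 under PD0332991 (fold change: 0.257, 95% interval 0.228 to 0.289), and HP, haptoglobin, at 79.4, 251, 250.01 and 223 CPM (fold change: 0.317, 95% interval 0.292 to 0.343). SERPINA3, an inhibitor of proteases, stood at 263, 572, 438 and 1014 CPM (fold change: 0.46, 95% interval 0.44 to 0.482), and SOCS3, the feedback inhibitor of the pathway, had 17 reads against 35. For IL6ST and HP the scrambled siRNA library stood alone below the 3 others, and the list's median in CDK4/6 KD against PD0332991 was 0.12. HAMP belongs to this list too.

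Lipid genes leaned upward, with 16 of 126 members 2-fold higher (12.7%, against 5.3% of all genes), 8 lower (6.35%, against 6.64%) and a median of 0.23. Cholesterol synthesis genes nearly all lay on the higher side. Of 27 genes 26 were compared, 24 had whole intervals above 1, 5 were 2-fold higher and none was 2-fold lower, with a median of 0.74. HMGCS1, which makes the precursor of mevalonate, stood at 824 CPM in scrambled siRNA, 399 in DMSO, 1039 in CDK4/6 KD and 219 under PD0332991 (fold change: 2.07, 95% interval 1.99 to 2.15). MVK, mevalonate kinase, stood at 109, 52.9, 124 and 31.1 CPM (fold change: 2.07, 95% interval 1.86 to 2.31). The order of the libraries was the same for both genes, CDK4/6 KD highest, then scrambled siRNA, DMSO and PD0332991. Later steps behaved alike, with fold changes of 1.74 for FDFT1, 1.56 for CYP51A1 and 1.9 for DHCR7. SREBF2, which encodes SREBP2, was 1.52-fold higher (interval: 1.34 to 1.72).

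The exceptions were IDI1 (fold change: 0.807) and the sterol transporter gene STARD4 (fold change: 0.745), whose intervals lay below 1. INSIG1 had too few reads to be compared. In CDK4/6 KD against PD0332991 the median was 1.46, and 22 of the 26 members lay above 1 in both pairs. The SREBP core motif CACCCCAC, searched on both strands, was found in 1 of 19 members with a promoter entry (SREBF2) and in 2.72% of all promoters.

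Fatty acid synthesis was less uniform, with 10 of 19 whole intervals above 1 and 6 below (median: 0.11). FASN, fatty acid synthase, stood at 1145 CPM in scrambled siRNA, 654 in DMSO, 964 in CDK4/6 KD and 663 under PD0332991 (fold change: 1.75, 95% interval 1.7 to 1.81), ACLY, which supplies its acetyl-CoA, at 753, 462, 798 and 385 CPM (fold change: 1.63, 95% interval 1.57 to 1.69), and ACSS2, which makes acetyl-CoA from acetate, at 48.4, 22.5, 57.8 and 27 CPM (fold change: 2.14, 95% interval 1.82 to 2.54). ACACA had a fold change of 1.19. Among 16 compared genes of triglyceride metabolism 3 were 2-fold higher and 1 lower. Besides CIDEC, PLIN2, the main droplet coat of liver, stood at 1058, 499.9, 567 and 319 CPM (fold change: 2.12, 95% interval 2.04 to 2.19) and AGPAT9, an acyltransferase gene, at 19.4, 8.86, 5.04 and 12.8 CPM (fold change: 2.19, 95% interval 1.69 to 2.87). The lower member was PLIN5, another droplet coat gene, with 13 reads in scrambled siRNA and 30 in DMSO (fold change: 0.379, 95% interval 0.177 to 0.731). The final synthesis enzymes DGAT1 and DGAT2 had fold changes of 1.17 and 1.0.

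Genes of fatty acid oxidation and PPAR-alpha split by member. FABP1, the liver fatty acid carrier, stood at 1456 CPM in scrambled siRNA, 418 in DMSO, 1426 in CDK4/6 KD and 508 under PD0332991 (fold change: 3.48, 95% interval 3.36 to 3.61), high in both siRNA libraries. ANGPTL4, a PPAR target that inhibits lipoprotein lipase, had 7 reads in scrambled siRNA, 77 in DMSO, 32 in CDK4/6 KD and 93 in PD0332991 (fold change: 0.083, 95% interval 0.0302 to 0.168). CPT1A, which lets fatty acids into mitochondria, was lower (fold change: 0.647, 95% interval 0.59 to 0.708), and CPT2 slightly higher (fold change: 1.22). Known PPAR-alpha targets thus lay on both sides, FABP1 above and ANGPTL4 below.

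Apolipoproteins were near DMSO as a list, with 1 of 18 members 2-fold lower and none higher (median: 0.03, and -0.07 with quantile scaling), although APOA2 stood at 7168 CPM in scrambled siRNA, 3863 in DMSO, 4866 in CDK4/6 KD and 4914 under PD0332991 (fold change: 1.86, 95% interval 1.83 to 1.88) and the lipase LIPC was lower (fold change: 0.538, 95% interval 0.475 to 0.607). The sterol sensor NR1H2, which encodes LXR-beta, stood at 15.5, 5.03, 12.7 and 6.04 CPM (fold change: 3.06, 95% interval 2.21 to 4.37), and its target ABCA1 had a fold change of 1.32. Of 15 bile acid genes 3 were 2-fold higher and 2 lower. NR1H4, which encodes the bile acid receptor FXR, stood at 7.38, 28.1, 29.8 and 30.4 CPM (fold change: 0.264, 95% interval 0.201 to 0.339), lowest in scrambled siRNA. ABCC2, the canalicular exporter MRP2, stood at 202, 82.3, 125 and 104 CPM (fold change: 2.45, 95% interval 2.26 to 2.67). The first enzyme of bile acid synthesis, CYP7A1, was not compared.

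Liver genes leaned downward. Over 163 genes of the 8 liver lists 12 were 2-fold higher (7.36%) and 21 were 2-fold lower (12.9%), around a median of -0.11. Liver transcription factors contributed 8 of the lower and 2 of the higher genes among 26 (median: -0.30). CEBPA, a factor of hepatocyte differentiation, stood at 39.1 CPM in scrambled siRNA, 160.4 in DMSO, 62.9 in CDK4/6 KD and 129 under PD0332991 (fold change: 0.244, 95% interval 0.218 to 0.272). The orphan receptor gene NR2F2 stood at 70.5, 164, 173 and 131 CPM (fold change: 0.429, 95% interval 0.392 to 0.468) and HLF, a clock-linked factor, at 127, 283, 197 and 273 CPM (fold change: 0.447, 95% interval 0.418 to 0.477). HNF4A, a marker of the line, was near 1 (fold change: 1.01).

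Secreted plasma proteins were mixed. ALB, albumin, stood at 2574 CPM in scrambled siRNA, 3319 in DMSO, 5165 in CDK4/6 KD and 3049.9 under PD0332991 (fold change: 0.775, 95% interval 0.763 to 0.788) and AFP, its fetal counterpart, at 691, 574, 724 and 394 CPM (fold change: 1.21, 95% interval 1.16 to 1.25). SERPINA10 was higher (fold change: 2.37, 95% interval 1.88 to 3.03), and SERPING1, the C1 inhibitor, had 6 reads against 26 (fold change: 0.211, 95% interval 0.0663 to 0.49). KNG1 had 0 reads in scrambled siRNA, 14 in DMSO, 26 in CDK4/6 KD and 15 in PD0332991. It was 5.47-fold lower by the floor of 3 reads, with an interval from 3.88-fold. None of 16 coagulation genes was 2-fold apart. Among 17 complement genes C8B had 3 reads against 39 (ratio: 0.0764, 95% interval 0.013 to 0.207) and C1R 12 against 43 (fold change: 0.246, 95% interval 0.114 to 0.46), while C6 had 23 against 2 (ratio: 8.19, 95% interval 2.43 to 85.9).

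Enzymes of drug and steroid clearance lay in both directions, with 5 of 27 members 2-fold higher and 3 lower. CYP24A1, which breaks down vitamin D, stood at 2.52 CPM in scrambled siRNA, 23.9 in DMSO, 1.59 in CDK4/6 KD and 8.68 under PD0332991 (fold change: 0.108, 95% interval 0.0681 to 0.158). CYP1A1 was lower too, at 6.64, 12.4, 3.8 and 44.4 CPM (fold change: 0.538, 95% interval 0.393 to 0.728), and was far higher in PD0332991 than in the other libraries. UGT2B10, a glucuronidation enzyme with near-identical copies, stood at 57.5, 18.1, 62.1 and 39.3 CPM (fold change: 3.18, 95% interval 2.68 to 3.8). In the urea cycle and amino acid catabolism 3 of 27 were 2-fold lower and none higher (median: -0.22, and 0.11 with a filter of 50 reads). OAT stood at 16.4, 38.9, 37.9 and 28.1 CPM (fold change: 0.422, 95% interval 0.349 to 0.506), CPS1, the entry enzyme of the urea cycle, at 10.6, 18.2, 15.3 and 17.7 CPM (fold change: 0.582, 95% interval 0.454 to 0.743), and GOT1 at 198, 109, 168 and 124 CPM (fold change: 1.82, 95% interval 1.69 to 1.97).

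Gluconeogenesis genes were few in reads. G6PC, which releases glucose, had 2 reads in scrambled siRNA, 12 in DMSO, 1 in CDK4/6 KD and 67 in PD0332991 (ratio: 0.174, 95% interval 0.0155 to 0.639), and FBP1 had 23 against 2 (ratio: 8.19, 95% interval 2.43 to 85.9). Iron genes other than HAMP differed too. STEAP3, which reduces iron in endosomes, stood at 6.82 CPM in scrambled siRNA, 25.1 in DMSO, 21.5 in CDK4/6 KD and 19.2 under PD0332991 (fold change: 0.274, 95% interval 0.206 to 0.356). TFRC, the transferrin receptor, stood at 141, 239, 128 and 208 CPM (fold change: 0.592, 95% interval 0.554 to 0.632), and FTL, the ferritin light chain, at 8731, 5329.7, 6892 and 4735 CPM (fold change: 1.64, 95% interval 1.62 to 1.66). FTL has many processed copies in the genome, to which reads may also be assigned.

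Adhesion and cell shape genes gave further differences. KRT19, a keratin of bile duct and progenitor cells, stood at 1138 CPM in scrambled siRNA, 354 in DMSO, 541 in CDK4/6 KD and 307 under PD0332991 (fold change: 3.22, 95% interval 3.1 to 3.35), and SFN, an epithelial 14-3-3 protein listed among the keratinocyte markers, at 305, 134, 102 and 61.8 CPM (fold change: 2.28, 95% interval 2.14 to 2.44). KRT14 had 31 reads against 9 (ratio: 2.85, 95% interval 1.37 to 7.02), with 74 in CDK4/6 KD and 249 in PD0332991, so this basal keratin was highest in PD0332991. Of 23 integrins, laminins and keratins 5 were 2-fold higher and none lower. The scaffold gene AKAP12 stood at 1570.1, 338, 146 and 199.9 CPM, and the collagen receptor gene ITGA2 at 149, 64.4, 33.4 and 80.6 CPM (fold change: 2.31, 95% interval 2.1 to 2.54). In both, scrambled siRNA was the highest library. None of 24 ribosomal protein genes was 2-fold apart around a median of -0.01, with 6 whole intervals above 1 and 11 below. Their median in CDK4/6 KD against PD0332991 was -0.38. None of 26 respiratory chain genes was 2-fold apart around 0.03, a sign that differed with total count or quantile scaling. Of these, 10 had whole intervals above 1 and 9 below. Of 23 DNA replication and mitosis genes none was 2-fold apart, but 19 had whole intervals below 1 (median: -0.57). MCM2, a subunit of the replication helicase, stood at 106, 202, 67.2 and 28.6 CPM, so that DMSO was the highest of the 4 libraries. Glycolysis genes had 12 of 17 whole intervals above 1.

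The other siRNA library and the other DMSO-based library allow the differences to be set beside a second pair, CDK4/6 KD against PD0332991. Both pairs set a transfected culture against a culture in DMSO, and the second also differs by how CDK4/6 was inhibited. In it 910 of 13683 genes were 2-fold higher (6.65%) and 1018 were 2-fold lower (7.44%). Across the 13025 genes in both pairs Spearman's rho of the log2 fold changes was 0.05, a description over genes that are not independent replicates. Of the 1409 genes 2-fold apart in the first pair and present in the second, 776 (55.1%) lay on the same side of 1 in both, against 52.2% of all genes. For genes lower in scrambled siRNA the share was 57.9% and for genes higher 51.2%. The side of 1 in the second pair was thus close to evenly split for the genes 2-fold higher in scrambled siRNA.

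Of 388 genes with whole intervals past 2-fold in the first pair and present in the second, 224 (57.7%) lay on the same side of 1, against 52.2% of all genes. Where whole intervals lay past 2-fold in both pairs, 54 of those 388 genes had the same direction and 13 the opposite one. The matching share of all genes in the second pair was not computed. By fold change alone, of genes 2-fold higher in the first pair 16.2% were 2-fold higher in the second and 15.7% 2-fold lower. Of genes 2-fold lower, 19.6% were 2-fold lower and 10.4% 2-fold higher. Over all genes of the second pair 6.65% were 2-fold higher and 7.44% 2-fold lower. Of the 54, 40 were lower in both siRNA libraries, among them HAMP, ID1, ID3, ATOH8, HSD11B2, KCNJ10, CYP24A1, NOTUM, COL1A1 and ANGPTL4, and 14 were higher, among them FABP1, BAAT, AGR2 and IL17B. Of the 13, 10 were higher in scrambled siRNA and lower in CDK4/6 KD than in their partners. EGR1, DUSP6, IGFBP1, SLC2A1, ITGA2 and RNF183 belonged to these. The SMAD and cholesterol lists thus lay on the same side in both pairs by their medians. The ERK feedback genes had medians of 0.04 in the first pair, a value whose sign depended on the scaling, and -0.70 in the second.

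**Figure D4:**
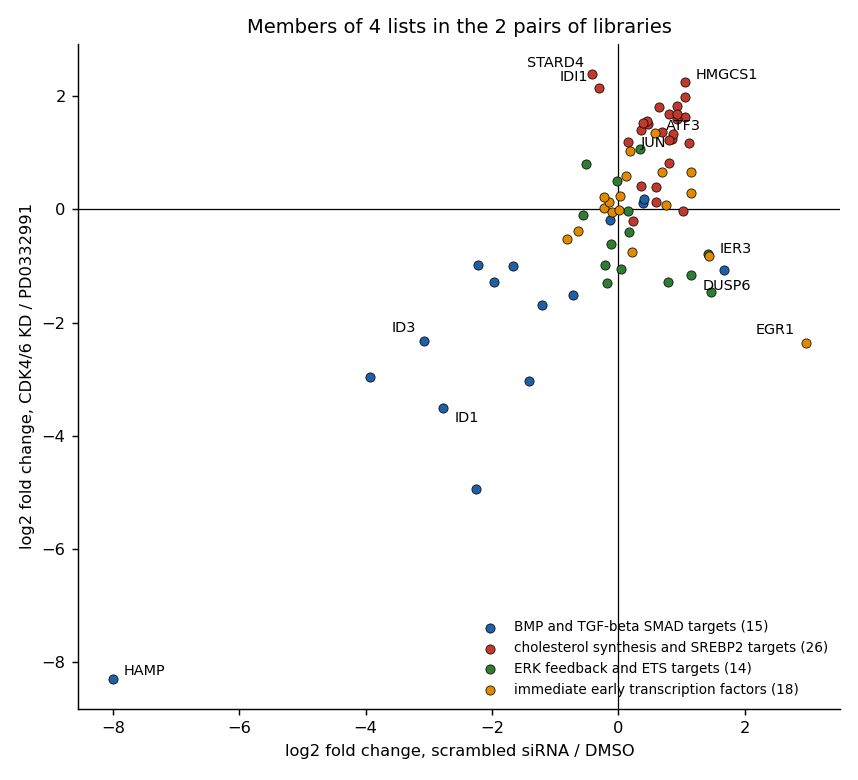
Log2 fold change of scrambled siRNA to DMSO (x axis) and of CDK4/6 KD to PD0332991 (y axis) for members of 4 lists that were compared in both pairs, 1 point per gene, with HAMP at its bound on the x axis. SMAD targets lie mostly at the lower left (12 of 15), cholesterol genes in the upper right (22 of 26), and EGR1, IER3 and DUSP6 in the lower right.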

How the data were processed

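RNA of HepG2 cells was extracted with Trizol, and QuantSeq 3′ mRNA libraries were made from it and sequenced as single-end reads of 75 bases. The deposited values are raw read counts per gene, with no normalization by the authors. The submitters' processing notes name Bowtie2, edgeR and hg19, and the counting tool, its use of strand and the annotation are not given in the sources used here. Each table held 25737 entries, and summing over 286 repeated symbols gave 24462. Total counts ran from 8983848 to 11176880 per library. No molecular identifiers are named, so reads are not independent molecules and all intervals cover counting error only.

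Libraries were scaled by TMM over the 4 libraries (edgeR 4.0.16 in R 4.3.3, factors 0.957 to 1.03). Genes with at least 10 reads in scrambled siRNA or DMSO were compared, 0.5 reads were added before taking ratios, and a library at 0 reads was set at a floor of 3 reads. With 1 library per group no model was fitted and no p-value was computed. Exact Clopper-Pearson intervals (95%) were computed with scipy 1.17.1 (Python 3.11.15, numpy 2.4.6, pandas 2.3.3, statsmodels 0.14.6, matplotlib 3.10.9). The method was tested on simulated data for this comparison with 13303 genes: 95.7% of intervals held the true fold, 142 of 13103 unchanged genes passed 2-fold, 1 had its whole interval past 2-fold, and all 137 genes changed at least 4-fold were found. The simulated counts held counting error only (Poisson draws), with no variation between cultures or library preparations. These values check the calculation and are not error rates for the real libraries.

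Genes, gene lists and motifs were chosen with earlier results of these data known. Named genes were the 12 firmest in each direction by the interval end nearest 1, up to 3 members per list with the firmest difference of at least 1.5-fold, and the first 2 members of each signalling, stress, lipid and liver list. Outside this rule, and after their values were seen, the text names AXL, BAMBI, SKIL, SMURF1, LTBP3, SMAD6, SMAD7, TGFBI, VIM, FST, FOS, FOSL2, JUN, MAFF, MYC, SRF, ETV4, ETV5, EREG, IFI6, OASL, RSAD2, SERPINA3, SOCS3, FDFT1, CYP51A1, DHCR7, SREBF2, IDI1, STARD4, INSIG1, HNF4A, LIPE, EGR2, LYZ, MT2A, PLIN5, DCN, KRT10, TP63 and IVL. Lists share some members. LOC, uncharacterised and Y-linked genes were passed over, and some genes that the rule names are not reported here.

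The alternatives were DESeq2 (1.42.0) size factors, total counts, quantile normalization (limma 3.58.1), TMM over the 2 libraries compared, other filters, a pseudocount of 5 reads, 1 entry (that with most reads) per repeated symbol, other thresholds, and removal of the trend with GC content. GC content was read over the 3′-most 500 bases of GENCODE 29 transcripts (GRCh38) for 91.4% of the genes, with a lowess span of 0.3. Promoters are from RefSeq on GRCh38.p14, matched by symbol.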

Additional observations from a re-analysis of the deposited data

Results flagged for a closer look

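In 13 genes the fold change of scrambled siRNA to DMSO and that of CDK4/6 KD to PD0332991 had whole intervals past 2-fold in opposite directions, and 6 of them were among the named genes and are given here. Each value compares 1 library with 1 other, and the difference between the pairs was not tested. EGR1, the immediate early factor, was 7.81 in the first pair and 0.194 in the second. RNF183, the ubiquitin ligase, was 11.3 and 0.193, and DUSP6, the ERK phosphatase, 2.22 and 0.445. IGFBP1, the insulin-repressed binding protein, was 2.69 and 0.0262. SLC2A1, the glucose transporter, was 2.22 and 0.338, and ITGA2, the collagen receptor subunit, 2.31 and 0.415.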

How the results depend on the processing

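The scrambled siRNA library had 705 genes 2-fold higher and 883 genes 2-fold lower than DMSO, and these counts depended by construction on filter and threshold: 1909 and 2372 with no filter, 311 and 465 at 50 reads, 165 and 265 when the whole interval had to pass 2-fold, and 1783 and 2092 at 1.5-fold. With the GC trend removed they were 579 and 760, but only the 91.4% of genes with a GC value were counted there. These 2 counts are therefore lower in part because genes were left out. The share of 2-fold differences that were upward, 44.4%, was 38.7% with total counts, 48.8% with quantile normalization, 40.1% at 50 reads and 38.4% for whole intervals past 2-fold. The share of 2-fold genes on the same side of 1 in CDK4/6 KD against PD0332991, 55.1%, was 57.7% for whole intervals past 2-fold. The cause of these shifts, other than filter, threshold and the genes left out for lack of a GC value, was not tested. The median of all genes was -0.06 with total counts and 0.02 with quantile normalization.

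The medians over all stress, lipid and liver genes kept their direction under each alternative. That over the signalling genes was -0.01 and was 0.02 with quantile normalization. Of 201 named genes with a fold change none reversed, while 23 left their interval with total counts, 23 with quantile normalization, 5 with a pseudocount of 5 reads, and 18 of 198 with the GC trend removed. Of 48 list medians 1 moved beyond the spread of its members with quantile normalization and 1 with a pseudocount of 5 reads. The filters were not applied to single genes, and the same-side share was not run under TMM over the 2 libraries. No paired analysis was possible because the labels give 1 library per group and no replicate numbers, and for the same reason leaving out a library gives no value. Depth limits the genes with few reads: among those with a mean of 5 to 20 reads nearly as many passed 2-fold upward (23.5%) as downward (24.2%).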
